A study of Caenorhabditis elegans with 6 samples.

Results

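The 10 genes described here encode the thick filament of *C. elegans* muscle and the giant kinases bound to it, namely 4 myosin heavy chains (*unc-54*, *myo-3*, *myo-1* and *myo-2*), 3 myosin light chains (*mlc-1*, *mlc-2* and *mlc-3*), paramyosin (*unc-15*), twitchin (*unc-22*) and obscurin (*unc-89*). They are taken by name for their place in the sarcomere of body wall and pharynx and make up 10 of the 46739 genes in the count table. The rule uses no measured values, but the members were chosen with earlier results of these data known. RNA-Seq was performed on lysates of pools of whole wild-type Bristol N2 worms, which had been grown on *E. coli* OP50 until they were young adults and then fed RNAi bacteria (*E. coli* HT115) for 5 days at 20 °C. In 3 libraries the bacteria are labelled as carrying the *Y37A1B.5* RNAi plasmid, and in 3 control libraries they carried the empty vector L4440, so that the age, the strain and the change of food are common to both groups. The study describes 3 independent experiments as biological replicates. It asked which transcripts change when *Y37A1B.5*, the worm counterpart of a selenium-binding protein and methanethiol oxidase, is knocked down.

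*Y37A1B.5* itself was counted 4833, 3519 and 4189 times in labelled replicates 1 to 3, against 1126, 1295 and 792 counts in control replicates 1 to 3. The target gene was thus counted more often in the group labelled as its knockdown, and why was not tested. The group is therefore called by its label throughout, and each direction below rests on that label. A library held 34403223 to 46733527 counts on genes, and each member had between 395 and 5577 counts in every library. Labelled replicate 3 stood apart from its group, with a chi-square per degree of freedom of 49.8 and 41.1 against labelled replicates 1 and 2, which had 17.99 between them, while the control pairs had 4.71 to 13.99. A gene was tested if it passed filterByExpr of edgeR (minimum count 10, minimum total 15), which all 10 members did and 15003 genes in all. Levels are given in CPM, read counts scaled to a common library size by the TMM method of edgeR, and a fold change sets the libraries labelled Y37A1B.5 RNAi over the control. The quasi-likelihood test of edgeR, which is two-sided, was used for single genes, and p-values were adjusted over all 15003 genes by the method of Benjamini and Hochberg.

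In muscle, myosin heavy chains pair through their rods and pack into the bipolar thick filament around a core of paramyosin, and each head carries a regulatory and an essential light chain. Body wall muscle, which moves the animal, uses the heavy chains MHC A (MYO-3) in the middle of the filament and MHC B (UNC-54) along its arms, while pharyngeal muscle, which pumps food, uses MHC C (MYO-2) and MHC D (MYO-1). Twitchin and obscurin are among the largest proteins of the worm, chains of immunoglobulin and fibronectin domains with kinase domains. Twitchin lies along the A-band, and worms without it twitch, while obscurin lies at the M-line, where thick filaments are cross-linked.

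By edgeR 0 of the 10 members passed an adjusted p of 0.05, where 13.7% of all genes tested passed it, and their adjusted p ranged from 0.057 for *unc-89* to 0.936 for *unc-54*. Of the 2050 genes that passed, 722 were higher and 1328 lower, a split that moved to 487 and 1557 with upper-quartile factors and to 1193 and 1283 with DESeq2. At an unadjusted p under 0.05 there were 7 members, 5 lower and 2 higher, where 33.1% of all genes reached it, 18.8% lower and 14.3% higher. Without overlap between the groups, 5 members (*myo-3*, *myo-1*, *myo-2*, *unc-22* and *unc-89*) were lower in every library labelled Y37A1B.5 RNAi and 1 (*mlc-2*) was higher, shares to be read beside 22.1% and 18.4% of all genes tested. The members had a median log2 fold change of −0.24, against −0.03 over all genes tested. As whole worms were lysed, a smaller part of muscle in the RNA and fewer member transcripts per muscle cell cannot be told apart here. DESeq2's Wald test called 4 members, *myo-3*, *myo-1* and *myo-2* as lower and *mlc-2* as higher, with 19.4% of the 12736 genes to which it gave an adjusted p called, 10.1% lower and 9.37% higher. Leaving out labelled replicate 3 gave 3 members as lower (*myo-1*, *unc-22* and *unc-89*, where 18.5% of all genes were called, 10.6% lower), leaving out labelled replicate 2 gave 3 as lower (*myo-3*, *unc-22* and *unc-89*, 9.13% of all genes, 6.46% lower), and leaving out labelled replicate 1 gave *mlc-1* as higher (8.77% of all genes, 3.49% higher). Without control replicate 1, 2 or 3, 0 members were called, where 5.64%, 4.79% and 11.5% of all genes were. Other choices of scaling and filter gave 4 members with upper-quartile factors (13.6% of all genes), 3 with scaling to reference genes (8.99%) and 7 with no filter (12.8%). Scaling by RLE factors (2172 genes called in all) and a filter of at least 10 counts in every library (2061 in all) gave 0 members.

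**Figure D1:**
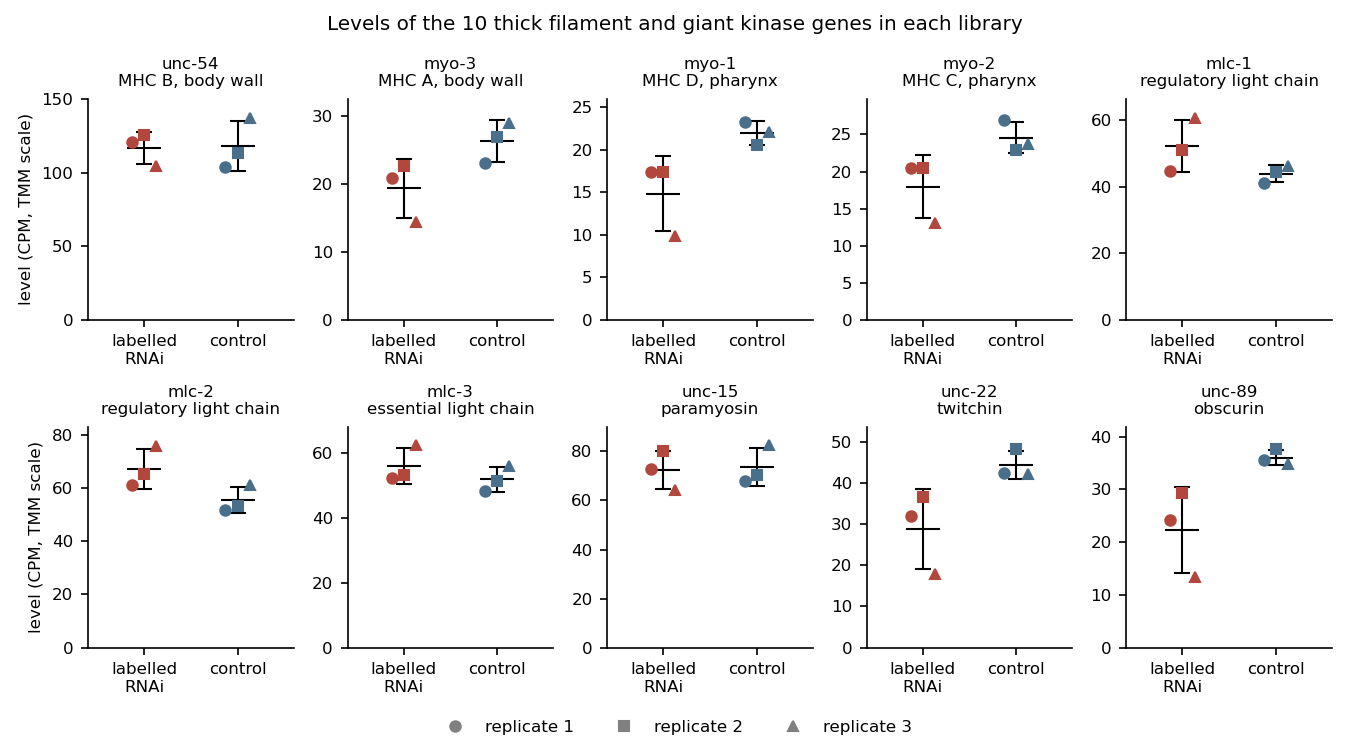
Level of each of the 10 members in CPM (vertical axes from 0) in the 3 libraries labelled Y37A1B.5 RNAi (red, left) and the 3 control libraries (blue, right), with symbols for the replicate number and black bars for mean ± SD. *myo-3*, *myo-1*, *myo-2*, *unc-22* and *unc-89* lie below the control in all 3 labelled libraries and lowest in replicate 3, while *unc-54*, *unc-15*, *mlc-1* and *mlc-3* overlap between groups.

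Both body wall heavy chains are made in the same muscle cells, yet their values differed. *unc-54* (WBGene00006789, chromosome I, 14855901 to 14863482 of WBcel235) had 121, 125 and 104.4 CPM in replicates 1 to 3 labelled Y37A1B.5 RNAi, against 103.99, 113 and 137 CPM in control replicates 1 to 3. The groups overlapped fully, with means of 117 ± 11.03 CPM in the labelled and 118 ± 17.1 CPM in the control libraries (SD, n = 3 each) and a log2 fold change of −0.02 (SE, the standard error, 0.11, edgeR adjusted p = 0.936). *myo-3* (WBGene00003515, chromosome V, 12226817 to 12234343), the minor chain without which no thick filaments form, had 20.9, 22.7 and 14.4 CPM in the labelled libraries and 23.01, 26.97 and 28.99 CPM in the control. All labelled libraries lay below all control libraries, by a narrow margin between labelled replicate 2 and control replicate 1. The log2 fold change of *myo-3* was −0.45 (SE 0.15, edgeR adjusted p = 0.0759), which does not pass.

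A ratio of counts within a library does not depend on how libraries are scaled to each other. *unc-54* had 5.78, 5.53 and 7.24 counts for each count of *myo-3* in labelled replicates 1 to 3, against 4.52, 4.20 and 4.73 in control replicates 1 to 3, so that each labelled library had the higher ratio. The difference was 0.45 on the log2 scale (p = 0.1 by a two-sided exact permutation test, which can go no lower with 3 against 3 libraries, and 0.3 after adjustment over 6 ratios). *unc-54* and *myo-3* transcripts are of nearly the same length, 6204 and 6104 bp, and the part of length in this ratio was not tested. By contrast the ratio of *unc-15* to *unc-54*, the core protein to the major chain around it, was 0.619 ± 0.0185 in the labelled and 0.626 ± 0.0268 in the control libraries (SD, n = 3 each, exact permutation p = 0.6).

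*unc-15* (WBGene00006754, chromosome I, 7376604 to 7383197) had 72.7, 80.0 and 64.4 CPM in the labelled libraries and 68.1, 70.3 and 82.6 CPM in the control, with a log2 fold change of −0.03 (SE 0.098, edgeR adjusted p = 0.882). Paramyosin thus overlapped between the groups as *unc-54* did, and over the 6 libraries the log2 CPM of both genes had a Pearson's r of 0.95, as a description of libraries that share their depth and scaling. Its r with *myo-3*, *myo-1*, *myo-2*, *unc-22* and *unc-89* was between 0.44 and 0.68. Outside the members, the 5 tested genes with the highest r to *unc-54* were *F20E11.17* (0.994), *apg-1* (0.992), *Y71H2AM.25* (0.987), *K06A4.10* (0.982) and *C15C6.2* (0.968). They were picked as the highest among all genes tested, over only 6 libraries, so that their r is a description with no test and shows no shared regulation. Of these *apg-1*, a clathrin adaptor subunit gene, was well counted, with 109 ± 3.54 CPM in the labelled and 109 ± 4.53 CPM in the control libraries (SD, n = 3 each), and the other 4 had less than 1 CPM on average in each group.

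The pharyngeal heavy chains lay lower in all labelled libraries, with an r of 0.99 between them over the 6 libraries. *myo-1* (WBGene00002348, chromosome I, 7258946 to 7267057) had 17.4, 17.4 and 9.81 CPM in replicates 1 to 3 labelled Y37A1B.5 RNAi, against 23.3, 20.5 and 22.1 CPM in control replicates 1 to 3. *myo-2* (WBGene00003514, chromosome X, 12468061 to 12475348) had 20.5, 20.5 and 13.01 CPM in the labelled and 26.9, 22.9 and 23.8 CPM in the control libraries. For both genes labelled replicates 1 and 2 were alike and replicate 3 lay far below them. The log2 fold changes were −0.57 for *myo-1* (SE 0.18, edgeR adjusted p = 0.0628) and −0.45 for *myo-2* (SE 0.15, edgeR adjusted p = 0.0771). Both were called by DESeq2, at −0.54 and −0.42 with adjusted p of 0.0108 and 0.0293. Without labelled replicate 3, *myo-1* had a log2 fold change of −0.33 and passed in edgeR (adjusted p = 0.0198), while *myo-2* was at −0.25 (adjusted p = 0.0602).

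Summed over both chains of each muscle, the pharyngeal heavy chains had 0.267, 0.256 and 0.192 counts for each body wall heavy chain count in labelled replicates 1 to 3, against 0.395, 0.310 and 0.276 in control replicates 1 to 3. The groups did not overlap, and labelled replicate 1 (0.267) and control replicate 3 (0.276) lay next to each other. The share of *unc-54* in the counts of the 4 heavy chains was 67.3%, 67.4% and 73.7% in the labelled and 58.7%, 61.7% and 64.7% in the control libraries. *myo-2* had 1.18, 1.18 and 1.33 counts for each count of *myo-1* in the labelled libraries and 1.15, 1.12 and 1.07 in the control (exact permutation p = 0.1, adjusted 0.3), so that the groups were apart here too but by a log2 difference of 0.14.

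The light chains had fold changes of the other sign. *mlc-2* (WBGene00003370, chromosome X, 17455792 to 17456586), a regulatory light chain, had 61.1, 65.3 and 75.7 CPM in replicates 1 to 3 labelled Y37A1B.5 RNAi, against 51.9, 53.3 and 61.0 CPM in control replicates 1 to 3. Labelled replicate 1 and control replicate 3 all but met, and replicate 3 was the highest of each group. Its log2 fold change was 0.28 (SE 0.094, edgeR adjusted p = 0.0713, DESeq2 adjusted p = 0.0289). *mlc-1* (WBGene00003369, chromosome X, 17459210 to 17460778), the second regulatory light chain, had 44.9, 51.1 and 60.6 CPM in the labelled and 41.1, 44.6 and 46.3 CPM in the control libraries, which overlapped, with a log2 fold change of 0.25 (SE 0.10, edgeR adjusted p = 0.128). *mlc-3* (WBGene00003371, chromosome III, 5565025 to 5567382), the essential light chain, had 52.1, 53.1 and 62.3 CPM in the labelled libraries, against 48.2, 51.2 and 55.9 CPM in the control, with a log2 fold change of 0.11 (SE 0.088, edgeR adjusted p = 0.411). Without labelled replicate 3 the 3 light chains were at 0.20 (*mlc-2*), 0.13 (*mlc-1*) and 0.03 (*mlc-3*) on the log2 scale, and without labelled replicate 1 *mlc-1* was at 0.36 and passed in edgeR (adjusted p = 0.0498).

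*mlc-1* and *mlc-2* are close copies of each other, and reads that map to several places were not counted, so that the values of both are less certain. Their ratio was 0.735, 0.782 and 0.800 in labelled replicates 1 to 3 and 0.793, 0.836 and 0.758 in control replicates 1 to 3, with overlap (exact permutation p = 0.5). The ratio of *mlc-3* to *mlc-1* overlapped as well, at 1.16, 1.04 and 1.03 in the labelled and 1.17, 1.15 and 1.21 in the control libraries (exact permutation p = 0.2). Light chain counts summed to 0.880, 0.912 and 1.40 for each heavy chain count in the labelled libraries, against 0.797, 0.811 and 0.769 in the control. All labelled libraries lay above the control, replicate 3 by far the most. Paramyosin had 0.405, 0.430 and 0.455 counts for each heavy chain count in labelled replicates 1 to 3, against 0.384, 0.383 and 0.389 in control replicates 1 to 3, which also left the labelled libraries higher. *unc-15* itself was at −0.03 on the log2 scale. Both class ratios set shorter transcripts over heavy chain transcripts of 6104 to 6457 bp. Fold changes of all genes moved with transcript length (below), and its part in these ratios was not tested.

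**Figure D2:**
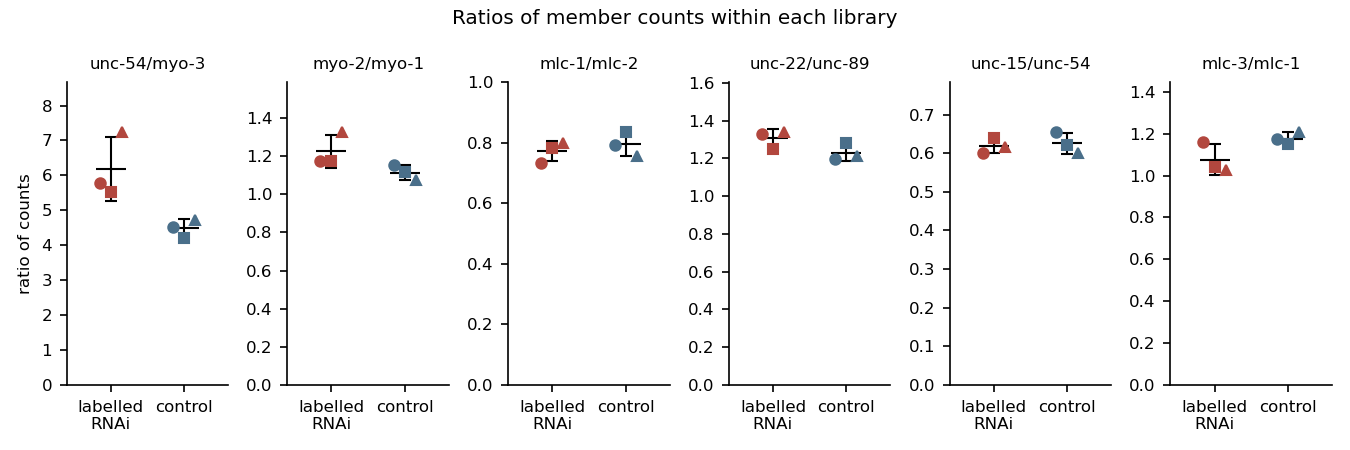
Ratios of the counts of 2 members within each library (vertical axes from 0, no unit) in the libraries labelled Y37A1B.5 RNAi (red, left) and the control libraries (blue, right), with circles, squares and triangles for replicates 1, 2 and 3 and black bars for mean ± SD. The ratios *unc-54*/*myo-3* and *myo-2*/*myo-1* are higher in all labelled libraries, and the other 4 overlap between groups.

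The giants had the most negative fold changes of the 10 members. *unc-89* (WBGene00006820, chromosome I, 4035702 to 4090885) had 24.1, 29.3 and 13.3 CPM in replicates 1 to 3 labelled Y37A1B.5 RNAi, against 35.5, 37.6 and 34.9 CPM in control replicates 1 to 3. *unc-22* (WBGene00006759, chromosome IV, 11972697 to 12011007) had 32.1, 36.6 and 17.8 CPM in the labelled and 42.4, 48.2 and 42.3 CPM in the control libraries. For both genes the groups were apart, the control libraries lay close together, and labelled replicate 3 lay well under both other labelled libraries. In the annotation used here, which is newer than the one used for counting, the exons of *unc-22* overlap those of 2 other genes on its strand. Reads over several genes were not counted, so that its level is less certain. The log2 fold changes were −0.69 for *unc-89* (SE 0.21, edgeR adjusted p = 0.057) and −0.62 for *unc-22* (SE 0.20, edgeR adjusted p = 0.0683). DESeq2 gave −0.66 and −0.59 with adjusted p of 0.121 and 0.148. Without labelled replicate 3 the values were −0.42 and −0.36 and both passed in edgeR (adjusted p of 0.0106 and 0.0168), and without labelled replicate 2 they were −0.95 and −0.83 and passed as well (0.0193 and 0.0316). The ratio of *unc-22* to *unc-89* was 1.31 ± 0.0493 in the labelled and 1.23 ± 0.0466 in the control libraries (SD, n = 3 each, exact permutation p = 0.2), with overlap, and their log2 CPM over the 6 libraries had an r of 0.996. Summed, the giants had 0.313, 0.355 and 0.220 counts for each heavy chain count in labelled replicates 1 to 3, against 0.439, 0.466 and 0.364 in control replicates 1 to 3, so that all labelled libraries were lower. This ratio sets much longer transcripts over those of the heavy chains, and the part of length in it was not tested.

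Transcript length moved with these values. Among all genes tested, the median log2 fold change was 0.08 for the 4621 genes whose longest transcript is under 1 kb, −0.13 for the 3065 genes of 2 to 4 kb, −0.29 for the 609 genes of 4 to 8 kb and −0.56 for the 77 genes of 8 to 16 kb. Only 10 tested genes are longer than 16 kb, *unc-22* (21601 bp) and *unc-89* (24703 bp) among them, and their median was −0.66. All 10 were lower in every labelled library than in any control library, and 4 of them passed (*cla-1*, *anc-1*, *unc-44* and *unc-68*). In the class of 4 to 8 kb the medians of labelled replicates 1 to 3, relative to the control mean, were −0.16, −0.17 and −0.57, and in the class over 16 kb they were −0.54, −0.31 and −1.44.

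Set beside genes of their own length, the members parted. *unc-89* and *unc-22* were at −0.69 and −0.62 in a class with a median of −0.66 that holds both. *myo-3* and *myo-2* (both −0.45) and *myo-1* (−0.57) were within or just under the middle 50% of the class of 4 to 8 kb, which ran from −0.46 to −0.15, with 26.9%, 25.8% and 14.8% of its genes below them. *unc-54*, in the same class, was at −0.02, and 564 of the 609 genes lay below it. *unc-15*, of 3424 bp, was at −0.03 in a class with a median of −0.13. The light chains, of 641 to 1155 bp, were at 0.28 (*mlc-2*), 0.25 (*mlc-1*) and 0.11 (*mlc-3*), in classes with medians of 0.08 under 1 kb and −0.00 from 1 to 2 kb.

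**Figure D3:**
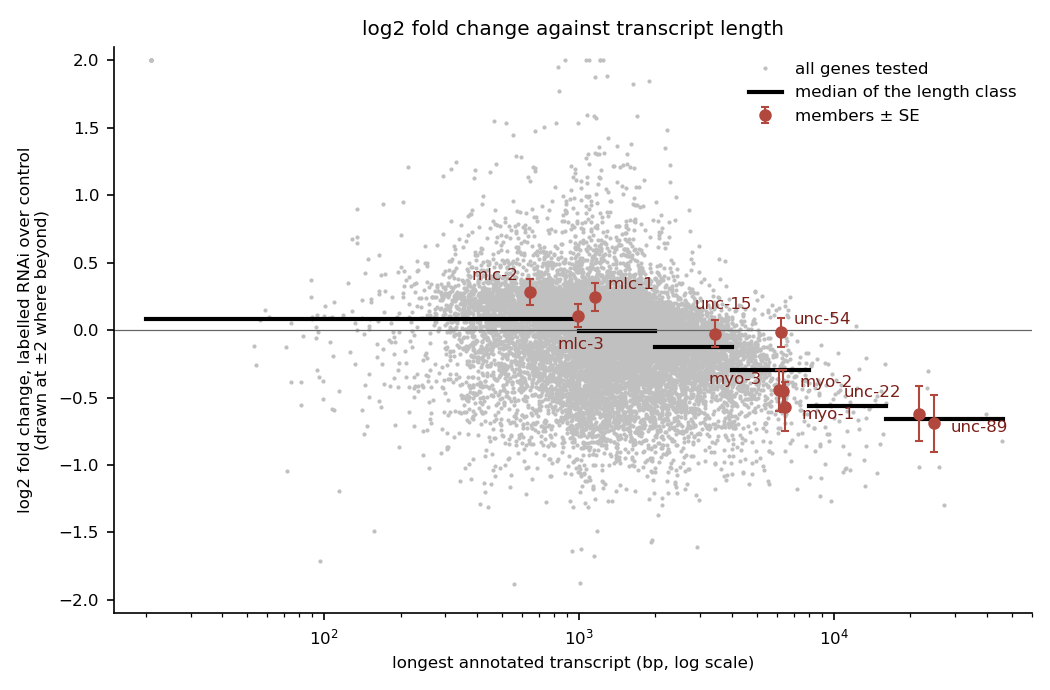
log2 fold change of the libraries labelled Y37A1B.5 RNAi over the control (vertical axis) against the length of the longest annotated transcript (log axis, bp) for all genes tested (gray), with the medians of 6 length classes (black lines) and the 10 members with their standard errors (red). The medians go down with length to −0.66 over 16 kb, where *unc-22* and *unc-89* lie, while *unc-54* lies above most genes of its class.

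When the trend with length was taken out of each library (loess, span 0.5), 0 of the 10 members passed in edgeR, where 14.6% of all genes tested passed. *unc-22* was then at 0.03 (SE 0.067, adjusted p = 0.819) and *unc-89* at −0.01 (SE 0.070, adjusted p = 0.911), though the trend at their length rests on few genes and includes both genes themselves. *myo-1*, *myo-3* and *myo-2* were at −0.26, −0.15 and −0.14 (adjusted p of 0.123, 0.324 and 0.312). *unc-54* was at 0.31 (SE 0.096, adjusted p = 0.0535) and *unc-15* at 0.14 (adjusted p = 0.257). The part of transcript length in the members' differences was not tested beyond this fit.

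**Figure D4:**
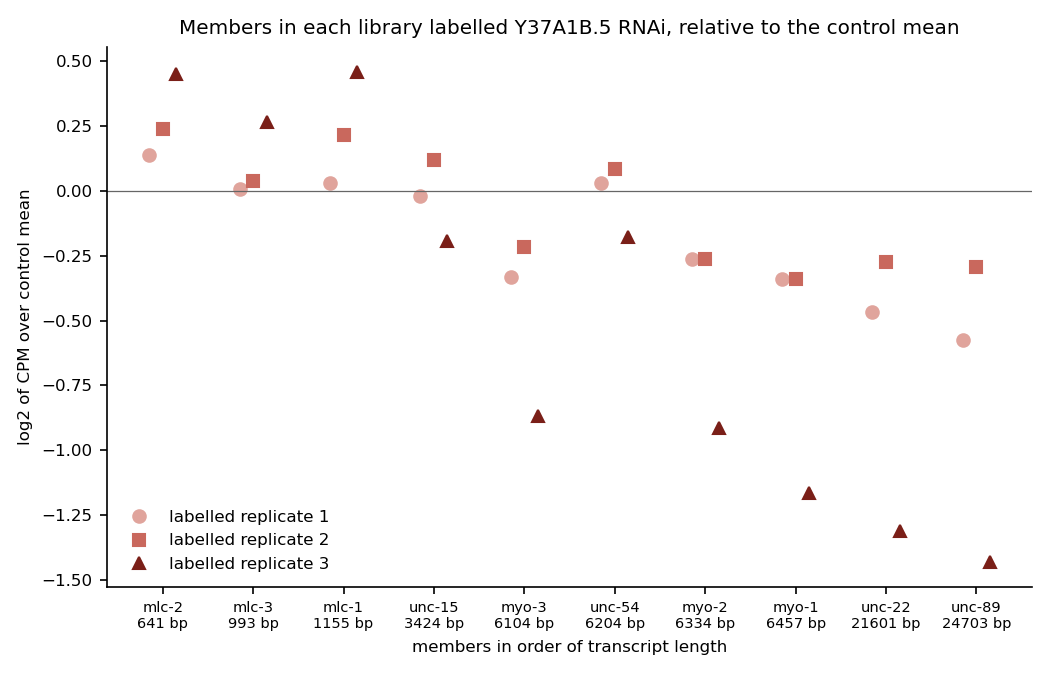
log2 of the level in each library labelled Y37A1B.5 RNAi over the mean of the control libraries (vertical axis), for the 10 members in order of transcript length (horizontal axis, bp). Replicate 3 (triangles) lies highest for the 3 light chains and lowest for the other 7 members, down to −1.43 for *unc-89*, and replicates 1 and 2 run in the same direction for the heavy chains *myo-3*, *myo-2* and *myo-1* and for both giants.

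Per length of exons, *mlc-2* was the most abundant member and *unc-89* the least. Levels per length are given in TPM, calculated here from the counts and the annotated exon length. *mlc-2* stood at 149 ± 19.9 TPM in the labelled and 128 ± 12.1 TPM in the control libraries (SD, n = 3 each). *mlc-1* (64.1 ± 10.9 TPM labelled, 56.4 ± 3.74 TPM control) and *mlc-3* (62.0 ± 7.76 TPM labelled, 60.003 ± 4.84 TPM control) followed and did not differ from each other beyond their spread. *unc-15* (29.9 ± 2.37 TPM labelled, 31.8 ± 3.55 TPM control) was above *unc-54* (26.6 ± 1.86 TPM labelled, 28.2 ± 4.26 TPM control) in each of the 6 libraries, although their ranges overlapped across libraries. After a gap came *myo-3* (4.47 ± 0.899 TPM labelled, 6.39 ± 0.780 TPM control) and *myo-2* (4.003 ± 0.883 TPM labelled, 5.73 ± 0.450 TPM control), whose ranges overlapped, and *myo-1* (3.24 ± 0.899 TPM labelled, 5.04 ± 0.299 TPM control), whose range was apart from that of *myo-2* in the control libraries only. The giants came last, *unc-22* (1.74 ± 0.551 TPM labelled, 2.81 ± 0.220 TPM control) above *unc-89* (1.21 ± 0.414 TPM labelled, 2.05 ± 0.0824 TPM control), with ranges that were likewise apart in the control libraries only. The order was the same in both groups except that *mlc-1* and *mlc-3* exchanged places. The place of *mlc-3* beside *mlc-1* depends on the length used, as its exons together span 1277 bp but its longest transcript 993 bp.

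Around the thick filament, 5 lists of related genes were read in the same fit, where 4.81% of all genes tested were called higher and 8.85% lower. Of 9 genes of thick filament assembly and the M-line, 0 were called higher and 1 lower, with a median log2 fold change of −0.10. This was *lim-8*, a LIM domain gene of the M-line, with 14.4 ± 1.38 CPM in the labelled and 18.1 ± 1.23 CPM in the control libraries (SD, n = 3 each, log2 fold change −0.33, SE 0.097, edgeR adjusted p = 0.0485), a call that was lost without any 1 of 5 of the libraries and in DESeq2. *ttn-1*, the titin-like giant, is named after its values were seen, as the member of that list with the largest fold change, −0.82 (adjusted p = 0.0756). Of 15 other myosin genes tested, 3 were lower and 0 higher, with a median of −0.22. These were *nmy-1*, a non-muscle heavy chain (−0.62, SE 0.17, adjusted p = 0.0344), *myo-6*, a further muscle-type heavy chain gene (−0.54, SE 0.13, adjusted p = 0.0252), and *hum-7*, an unconventional myosin (−0.36, SE 0.10, adjusted p = 0.0464).

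The thin filament list, with actins, troponins and tropomyosin, held calls in both directions, 2 higher and 2 lower of 22 genes, with a median of 0.03. *pat-10*, the body wall troponin C, had 92.0, 95.5 and 134 CPM in the labelled libraries, against 64.1, 74.3 and 82.7 CPM in the control (log2 fold change 0.54, SE 0.14, edgeR adjusted p = 0.0329). *unc-27*, a body wall troponin I, had 39.1, 41.9 and 47.2 CPM in the labelled libraries, against 26.0, 26.5 and 36.1 CPM in the control (0.53, SE 0.13, adjusted p = 0.023). Both rose without overlap, and their transcripts are short, at 855 and 933 bp. *tnt-4*, the pharyngeal troponin T, fell by 0.53 on the log2 scale (SE 0.14, adjusted p = 0.0344), and *unc-78*, an actin-interacting protein named after its values were seen, fell by 0.31 (SE 0.084, adjusted p = 0.0379). With the length trend removed these 4 genes still passed, at 0.47, 0.48, −0.55 and −0.28.

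Of 19 genes of dense bodies and muscle attachment, 3 were called lower and 0 higher, with a median of −0.24. *tln-1*, which encodes talin, had 73.5, 81.1 and 56.1 CPM in the labelled and 115, 118 and 116 CPM in the control libraries and fell by 0.73 on the log2 scale (SE 0.11, edgeR adjusted p = 0.00348). *unc-112*, a kindlin, fell by 0.31 (SE 0.073, adjusted p = 0.0224) and the kinase gene *pkn-1* by 0.41 (SE 0.12, adjusted p = 0.0462). Of 21 genes of muscle excitation and calcium handling, 4 were lower and 0 higher, with a median of −0.13. *dys-1*, the dystrophin gene, fell by 0.75 (SE 0.13, adjusted p = 0.00622), the calcium channel gene *egl-19* by 0.40 (SE 0.093, adjusted p = 0.0218) and the ryanodine receptor gene *unc-68* by 0.54 (SE 0.14, adjusted p = 0.0322). *sca-1*, the calcium pump of the sarcoplasmic reticulum, named after its values were seen, fell by 0.43 (SE 0.12, adjusted p = 0.0374).

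Of the 15 calls in these lists, those of *tln-1* and *dys-1* alone held in each fit that left out 1 library. Without control replicate 1, 2 or 3 there remained 3, 2 and 7 of the 15, and without labelled replicate 1, 2 or 3 there remained 8, 11 and 12. With the length trend removed 8 remained (*nmy-1*, *unc-27*, *tnt-4*, *pat-10*, *unc-78*, *tln-1*, *sca-1* and *dys-1*) and *lim-8*, *myo-6*, *hum-7*, *unc-112*, *pkn-1*, *unc-68* and *egl-19* did not pass. The long transcripts of *tln-1* (8361 bp) and *dys-1* (11243 bp) were then at −0.33 and −0.27 on the log2 scale.

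Markers of the tissues in a whole worm were read beside these values, none of the members among them. Most markers of body wall and pharyngeal muscle are also genes of the lists above, so that they repeat the same values. All 10 markers of body wall muscle were detected, and they summed to 328 to 386 CPM in the libraries labelled Y37A1B.5 RNAi and 281 to 332 CPM in the control, with 2 called higher (*unc-27* and *pat-10*, also in the thin filament list) and 0 lower. By edgeR, 4 of these 10 were higher and 2 lower at an unadjusted p under 0.05, against 14.3% and 18.8% of all genes tested. The 2 lower ones were *atn-1* (−0.31) and *dim-1* (−0.20). *pat-10* held the largest part of the sum, with a mean of 107 CPM in the labelled and 73.7 CPM in the control libraries. The 5 markers of pharyngeal muscle summed to 32.2 to 36.8 CPM in the labelled and 37.3 to 41.4 CPM in the control libraries. These sums did not overlap, and 1 marker was called lower (*tnt-4*, −0.53), with *pha-4* at −0.37 and *ceh-22* at −0.39. *tni-4*, the most counted of them (mean 19.6 CPM labelled, 20.4 CPM control), was at −0.06 with overlap, and *tnc-2* was at 0.10, higher without overlap. The 7 markers of pharyngeal glands summed to 10.3 to 12.1 CPM in the labelled and 9.86 to 12.3 CPM in the control libraries with 0 called. The sums for the 10 markers of neurons (295 to 320 CPM labelled, 325 to 348 CPM control, 2 lower) and the 10 of embryos (22.8 to 27.7 CPM labelled, 28.1 to 34.9 CPM control, 1 lower of 7 tested) were lower without overlap as well. *snb-1*, the most counted neuron marker (mean 164 CPM labelled, 162 CPM control), was itself at 0.03 on the log2 scale. Most of the embryo sum came from *tbx-38* (mean 13.3 CPM labelled, 17.7 CPM control) and *tbx-37* (7.30 CPM labelled, 9.12 CPM control). Sums overlapped for 7 markers of hypodermis (58.7 to 67.9 CPM labelled, 57.9 to 83.9 CPM control, 1 higher and 1 lower), 9 of the intestine (15716 to 29327 CPM labelled, 24716 to 30965 CPM control, 0 called), 10 of oocytes and germ line (6118 to 8236 CPM labelled, 6850 to 7762 CPM control, 0 called) and 8 of sperm (3.18 to 5.26 CPM labelled, 4.29 to 4.82 CPM control, 0 called of 4 tested). None of the markers was at 0 in all libraries, and the part of other tissues in the members' values was not tested.

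**Figure D5:**
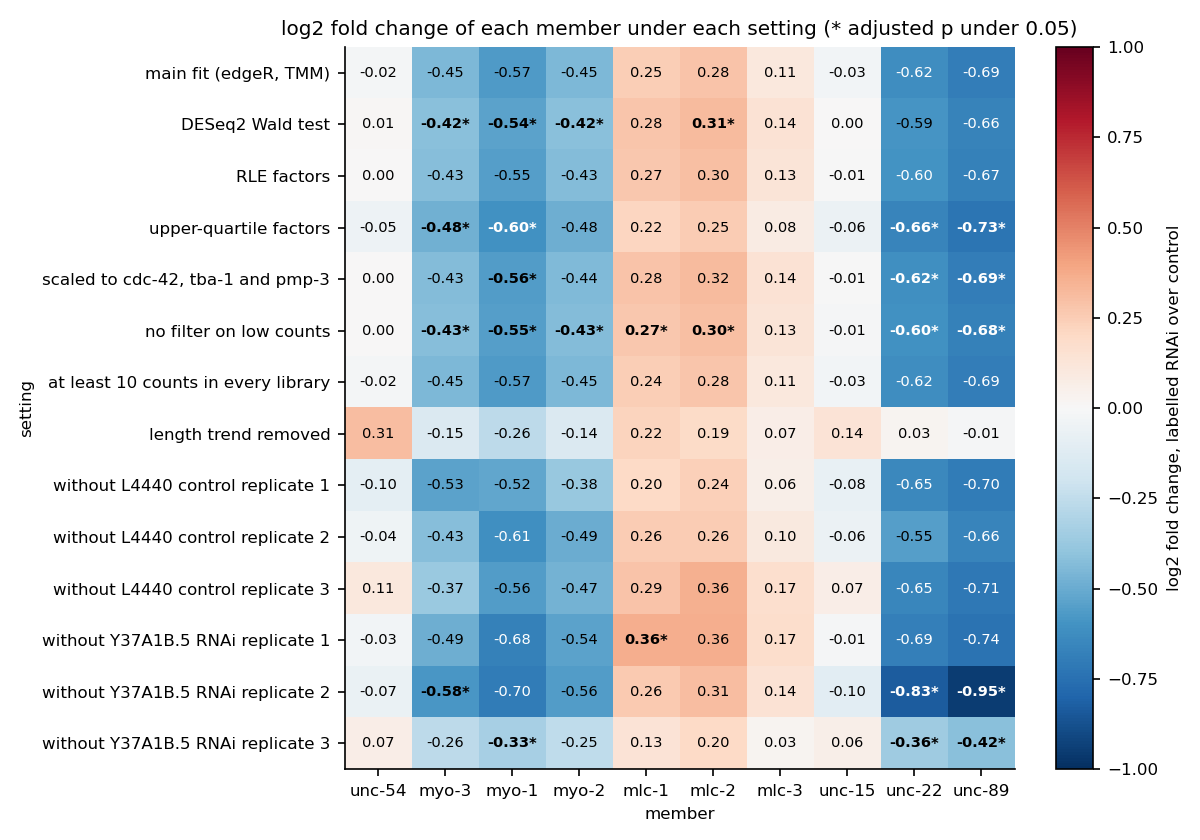
log2 fold change of the libraries labelled Y37A1B.5 RNAi over the control (color and number) for the 10 members (columns) under the main fit and the alternative settings without pairing (rows), with an asterisk where the adjusted p is under 0.05. *myo-3*, *myo-1*, *myo-2* and *unc-89* are negative and the 3 light chains positive in each row, *unc-22* is at 0.03 with the length trend removed, and *unc-54* and *unc-15* change sign.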

How the data were processed

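The authors deposited raw counts per gene for 6 stranded mRNA libraries. Per the labels and the study's methods, reads (bcl2fastq 1.8.4) were quality-trimmed, mapped to WBcel235 with TopHat2 2.1.0, and counted on their strand with featureCounts 1.5.0, without reads over several genes or several positions. No other step was applied to the deposited counts, and all 6 columns were used.

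Counts were tested here with edgeR 4.0.16 in R 4.3.3 (TMM, filterByExpr, quasi-likelihood test). Gene symbols, positions and lengths come from the Ensembl release 115 annotation of WBcel235, which is newer than the release used for counting. It holds 46484 of the 46739 genes and 14919 of the 15003 genes tested. The steps were tested on simulated data. No sequences are printed, since no sequence was used here.

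The members, the 5 lists and the markers were chosen with earlier results of these data known. Named genes are the members, *Y37A1B.5*, in each list up to 3 called genes with the smallest adjusted p, and the 5 genes with the highest correlation to *unc-54*. Also named, after their values were seen, are *ttn-1*, *unc-78*, *sca-1*, *cla-1*, *anc-1*, *unc-44*, *atn-1*, *dim-1*, *snb-1*, *tni-4*, *tnc-2*, *pha-4*, *ceh-22*, *tbx-37* and *tbx-38*. *hum-9*, *bus-8* and *opt-2* found no gene, and *hum-10* was too low to test. Alternatives were DESeq2 1.42.0, RLE, upper-quartile and reference gene scaling (*cdc-42*, *tba-1* and *pmp-3*), filters, a replicate block, a length trend and leaving out each library. No replicates agreed within sampling noise, so that each library counts as 1 sample.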

Additional observations from a re-analysis of the deposited data

How the results depend on the processing

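The members' calls depended on the setting. From 0 in the main edgeR fit, with 2050 genes called in all, the number of members called went to 4 with DESeq2, 4 with upper-quartile factors, 3 with the reference genes as the scale (1349 genes called in all), 7 with no filter on low counts (3298 in all) and 5 with the replicate block, and it was 0 with RLE factors, with at least 10 counts in every library and with the length trend removed. The cause was not tested. Members called were, on the log2 scale, *myo-3* (−0.42), *myo-1* (−0.54), *myo-2* (−0.42) and *mlc-2* (0.31) with DESeq2. Upper-quartile factors called *myo-3* (−0.48), *myo-1* (−0.60), *unc-22* (−0.66) and *unc-89* (−0.73), and the reference genes *myo-1* (−0.56), *unc-22* (−0.62) and *unc-89* (−0.69). With no filter, *myo-3* (−0.43), *myo-1* (−0.55), *myo-2* (−0.43), *mlc-1* (0.27), *mlc-2* (0.30), *unc-22* (−0.60) and *unc-89* (−0.68) were called. Signs changed only near 0 in the main fit or with the length trend removed. *unc-54* was at 0.014 with DESeq2, 0.0024 with RLE, 0.0038 with the reference genes, 0.00083 with no filter and 0.31 with the length trend removed, *unc-15* at 0.0047 with DESeq2 and 0.14 with the length trend removed, and *unc-22* at 0.026 with the length trend removed.

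Whether replicate numbers pair the libraries is undecided, since the labels do not say what a number shares. Deviations from the group means correlated by 0.135, 0.0626 and 0.121 for the same numbers 1 to 3 and by −0.146 to 0.0357 for different ones, so that every library correlated best with its own number, a hint from the data and not the design. As 0.0626 is under 0.1, the fit without the block was kept as the main one. With the replicate block 2917 genes (19.4% of those tested) and 5 of the 10 members, *myo-1* (−0.60), *myo-2* (−0.47), *mlc-2* (0.28), *unc-22* (−0.67) and *unc-89* (−0.75), were called, and the lists had 3 calls for thick filament assembly and the M-line, 5 for other myosins and 5 for dense bodies.

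With the length trend removed, the lists had 0 calls for thick filament assembly, 1 for other myosins, 7 for the thin filament and 2 for excitation. Leaving out 1 library gave 727 to 2811 genes called in all and 0 to 3 members. Ranges of the log2 fold change were −0.10 to 0.11 for *unc-54*, −0.58 to −0.26 for *myo-3*, −0.70 to −0.33 for *myo-1*, −0.56 to −0.25 for *myo-2*, 0.13 to 0.36 for *mlc-1*, 0.20 to 0.36 for *mlc-2*, 0.03 to 0.17 for *mlc-3*, −0.10 to 0.065 for *unc-15*, −0.83 to −0.36 for *unc-22* and −0.95 to −0.42 for *unc-89*. The ratio of *unc-15* to *unc-54* ranged from −0.043 to 0.018 on the log2 scale, and the other 5 ratios kept their sign. List calls ranged from 0 to 1 (thick filament assembly), 0 to 4 (other myosins), 0 to 4 (thin filament), 1 to 5 (dense bodies) and 1 to 5 (excitation).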
